A study of Mus musculus with 14 samples.

Results

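The genes described here are 10 genes grouped as feedback genes of cytokine signalling in blood cells. They are Cish, Socs1, Socs2, Socs3, Socs5, Socs6 and Socs7 of the SOCS family, and the kinase genes Pim1, Pim2 and Pim3. Whether cytokine signalling induces each of them in these cells was not tested. They were taken by symbol from the count tables of 2 RNA sequencing experiments. All 10 symbols were found among the 55367 symbols of each table. All 10 also passed the filter on low counts in both experiments, so no member was left untested.

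The cells were primary mouse bone marrow cells depleted of mature lineages, labelled wild-type in genotype, and all were grown in medium with SCF, IL6 and IL3 as cytokines. In the first experiment, 3 libraries came from cells given a lentivirus (pSMAL) with luciferase and 3 from cells given the same vector with the mutant SETBP1D868N. The SETBP1 protein sits in the nucleus and binds SET, an inhibitor of the phosphatase PP2A, and the mutant has an asparagine in place of an aspartate. In the second experiment all cells carried SETBP1D868N, and 4 libraries came from cells kept for 4 days with the solvent DMSO and 4 from cells kept for 4 days with 2.5 µM PF-9363, an inhibitor of MYST histone acetyltransferases. Strain, age, the number of animals, the promoter that drives the transgene and the share of cells that took up the virus are not given in the sources used here. Nothing in the labels says whether replicates were separate cultures or animals, so the p-values measure the spread between these libraries, which may be technical.

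Cytokine receptors such as those for IL3 and IL6 have no kinase of their own and work through bound JAK kinases, which phosphorylate STAT transcription factors. STATs then switch on genes that act back on the pathway. CISH and the SOCS proteins bind phosphorylated tyrosines with an SH2 domain and, through a SOCS box, bring an ubiquitin ligase to the receptor complex, which dampens the signal. PIM kinases are serine/threonine kinases that are active as soon as they are made, are induced by the same STATs and promote survival and growth of blood cells.

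On build GRCm38, Cish lies on chromosome 9 (107296026 to 107302784, plus strand), Socs1 on chromosome 16 (10782240 to 10785536, minus) and Socs2 on chromosome 10 (95385362 to 95417180, minus). Socs3 (117966079 to 117970047, minus) and Socs7 (97362551 to 97398542, plus) are both on chromosome 11. Socs5 (87107679 to 87137839, plus) and Pim1 (29490753 to 29496112, plus) are both on chromosome 17. Pim2 is on chromosome X (7878262 to 7883432, plus) and Pim3 on chromosome 15 (88862186 to 88865726, plus). All of these genes and Socs6 are annotated as protein-coding in GENCODE M21.

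The DNA letters that STAT dimers read in many target genes are TTCNNNGAA, a palindrome that is the same on both strands. The RefSeq promoter table of build GRCm38.p6 held windows of 250 bases before to 50 bases after a start site for 6 of the 10 genes, 7 windows in all. Cish had 2 matches, at bases 1 to 9 and 12 to 20 counted from the start site, and Socs3 had 1, at -154 to -146. The 5 windows of Socs1, Pim1, Pim2 and Pim3 held no match. Of all 32851 windows in the table, 8.3% held at least 1 match and 0.457% at least 2. A match describes the letters and was not tested as a binding site. The windows of Cish (chr9:107296409-107296678, plus strand) and Socs3 (chr11:117969367-117969616, minus strand) are shown because they are the members' windows with a match. Both lie inside the gene bounds given above, so their start sites are not the outermost ones annotated in GENCODE. The matches are in capitals, and the sequence stops at the start site or at the end of the last match.
Cish: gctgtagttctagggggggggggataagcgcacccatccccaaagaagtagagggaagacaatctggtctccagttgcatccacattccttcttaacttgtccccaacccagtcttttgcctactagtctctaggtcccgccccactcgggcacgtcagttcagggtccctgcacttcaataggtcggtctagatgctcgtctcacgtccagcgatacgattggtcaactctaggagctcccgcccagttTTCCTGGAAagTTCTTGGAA
Socs3: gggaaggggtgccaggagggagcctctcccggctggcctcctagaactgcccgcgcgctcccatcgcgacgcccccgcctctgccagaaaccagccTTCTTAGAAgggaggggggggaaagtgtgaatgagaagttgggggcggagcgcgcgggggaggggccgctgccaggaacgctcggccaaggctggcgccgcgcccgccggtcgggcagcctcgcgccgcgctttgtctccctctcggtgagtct

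Each library of the luciferase and SETBP1-D868N groups held 60147266 to 68730322 counts, and each of the other groups 7083731 to 10359093. The mouse gene Setbp1 had 5 to 6 counts in luciferase libraries and 20 to 24 in SETBP1-D868N libraries. Whether these include reads of the transgene was not tested. In the second experiment Setbp1 had 0 to 2 counts, where it checked nothing. Summed T cell markers were 0 to 1.58 CPM (a count relative to its library's total, with edgeR's TMM factors) and summed B cell markers 0.309 to 10.2 CPM. Summed promyelocyte and neutrophil markers were high, at 16560 to 25878 CPM, although the cells were lineage-negative when isolated. Summed stem and progenitor markers, Kit and Cd34 among them, were present at 159 to 812 CPM. Pairs of libraries of 1 group differed beyond sampling noise, so none was counted as a repeat. Their chi-square was 2.29 to 28.1 times its degrees of freedom (first experiment) and 2.77 to 7.29 times (second). On this measure luciferase 1 stood apart, at 27.4 times against luciferase 2 and 28.1 times against luciferase 3. Its correlations of log2(CPM + 1) with them were 0.9987 and 0.9986, within the 0.9984 to 0.9988 of the SETBP1-D868N pairs. Luciferase 2 and 3 were the closest pair, at 2.29 times. The 2 tables were normalized separately, and levels are not compared across them.

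In cells carrying SETBP1-D868N, most of the feedback genes were lower than with luciferase, by small amounts. Of the 10 genes, 7 fell (Cish, Socs1, Socs2, Socs3, Socs5, Socs6 and Pim2), Socs7 rose, and Pim1 and Pim3 did not pass the test (edgeR quasi-likelihood, adjusted p under 0.05 over all genes). Among all 15794 genes tested, 22.7% were called lower and 24.5% higher, 47.2% in all. The median log2 fold change of the 10 genes was -0.16, beside 0.0043 over all genes tested. Groups did not overlap for 8 of the 10, of which 7 lay lower and 1 higher, beside 56.7% of all genes, 27.3% lower and 29.4% higher. Scaling by library size alone in place of TMM turned the split over all genes from 3869 higher and 3579 lower to 4905 and 2997. No member changed by as much as 2-fold, beside 3.82% of all genes that were called at 2-fold or more. Bulk libraries cannot tell fewer expressing cells from less RNA per cell, here and in the results that follow.

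Cish and Socs2 encode the SOCS proteins known to limit STAT5 signalling. Cish was measured at 295, 313 and 311 CPM in the luciferase libraries 1 to 3 and at 275, 284 and 278 CPM in the SETBP1-D868N libraries 1 to 3. The lowest luciferase library lay above the highest SETBP1-D868N library. Its log2 fold change was -0.13 (edgeR, SE 0.029, adjusted p 0.00209) and was -0.086 (adjusted p 0.0330) when counts were scaled to library size alone. Socs2 read 38.2, 36.5 and 39.1 CPM with luciferase and 25.6, 27.7 and 26.4 CPM with SETBP1-D868N. All mutant libraries were below all control libraries, with a log2 fold change of -0.51 (edgeR, SE 0.043, adjusted p 1.85e-06).

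Socs1 and Socs3 encode proteins that can inhibit the JAK kinase itself. Socs3, which acts on the IL6 receptor subunit gp130, read 32.6, 37.0 and 36.7 CPM with luciferase and 23.3, 22.6 and 22.7 CPM with SETBP1-D868N. This was the largest change among the 10 genes in this comparison, a log2 fold change of -0.63 (edgeR, SE 0.051, adjusted p 1.28e-06). Socs1, known for restraining interferon signalling, read 87.3, 90.6 and 86.8 CPM with luciferase and 73.8, 68.9 and 77.9 CPM with SETBP1-D868N. Its groups did not overlap, and its log2 fold change was -0.26 (edgeR, SE 0.042, adjusted p 3.17e-04).

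Socs5, Socs6 and Socs7 encode the longer SOCS proteins, which act more on receptor tyrosine kinases than on cytokine receptors. Socs6, whose protein binds the SCF receptor KIT, read 54.9, 52.8 and 54.6 CPM with luciferase and 47.3, 50.7 and 50.5 CPM with SETBP1-D868N. The groups were apart, but the log2 fold change of -0.13 (edgeR, SE 0.036, adjusted p 0.0117) lost its call at -0.079 (adjusted p 0.0939) under scaling by library size alone. Socs5 read 25.8, 26.6 and 28.0 CPM against 22.8, 24.3 and 23.2 CPM, again without overlap, a log2 fold change of -0.19 (edgeR, SE 0.046, adjusted p 0.00385). Socs7 was the member that rose. It read 34.04, 34.4 and 35.01 CPM with luciferase and 38.9, 39.4 and 42.4 CPM with SETBP1-D868N, a log2 fold change of 0.22 (edgeR, SE 0.041, adjusted p 7.91e-04) with all mutant libraries above all controls.

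Of the PIM genes, Pim2 fell, from 39.2, 43.6 and 41.2 CPM with luciferase to 30.6, 27.9 and 32.8 CPM with SETBP1-D868N, with no overlap and a log2 fold change of -0.44 (edgeR, SE 0.061, adjusted p 1.92e-04). Pim1 read 346, 381 and 370.2 CPM against 372, 353 and 360.3 CPM, so the groups overlapped. Its log2 fold change was -0.016 (edgeR, SE 0.035, adjusted p 0.743). Pim3 read 131, 133 and 134 CPM against 132, 131 and 138 CPM, with a log2 fold change of 0.0075 (edgeR, SE 0.029, adjusted p 0.853). For both genes the groups overlapped and the difference was smaller than its own error, and its sign turned with the scaling.

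**Figure D1:**
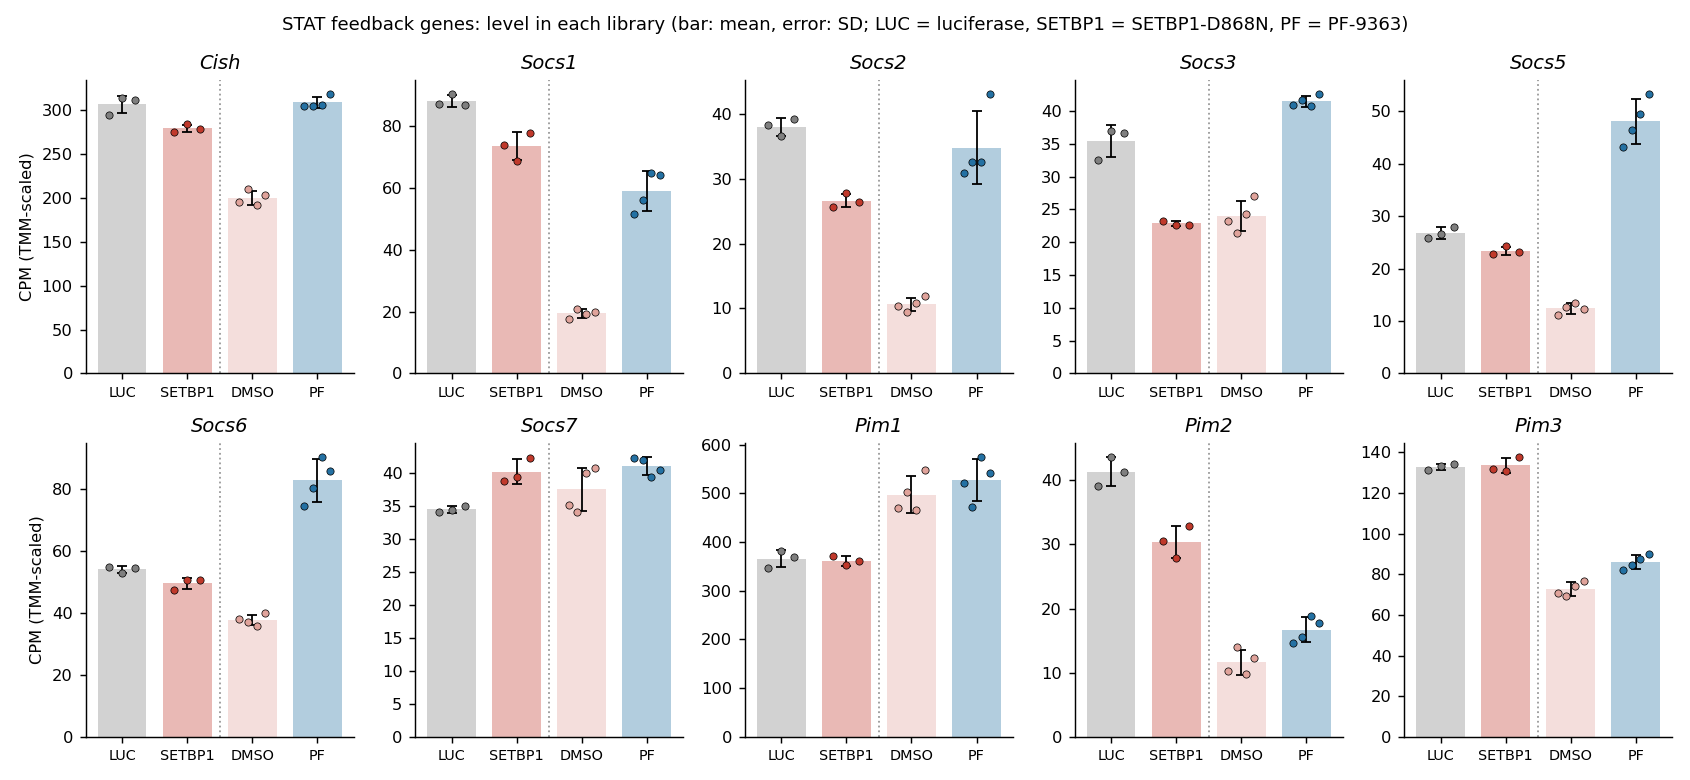
Level of each of the 10 genes in every library, in TMM-scaled CPM on axes that start at 0. Bars are group means, error bars SD (n = 3 for luciferase and SETBP1-D868N, n = 4 for DMSO and PF-9363) and points single libraries. The dotted line separates the 2 experiments, whose levels are not comparable. Socs2 and Socs3 show the widest gaps in the first experiment, and Socs1, Socs2 and Socs5 in the second.

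With PF-9363, 6 of the 7 SOCS family genes were higher than with DMSO, 4 of them by more than 2-fold. Over all genes tested, 33.9% were called at 2-fold or more, with 15.8% of all genes higher by that much. Of the 10 genes, 8 rose (Cish, Socs1, Socs2, Socs3, Socs5, Socs6, Pim2 and Pim3), and Socs7 and Pim1 did not pass the test. None was called lower by edgeR with TMM (0 also at an unadjusted p under 0.05, and 0 by DESeq2 and by limma-voom), while edgeR with library size alone called 1, Pim1 (-0.15, adjusted p 0.0344). In this experiment 36.6% of the 13456 genes tested were called higher and 39.4% lower, 76% in all, so a call alone sets no gene apart. The median log2 fold change of the 10 genes was 0.71, beside -0.038 over all genes. Groups did not overlap for 8 of the 10, all of them higher, beside 70.3% of all genes, 34% higher and 36.3% lower. Changes here are relative to the scaling. With library size alone in place of TMM, log2 fold changes shifted by -0.23 at the median gene and the split over all genes went from 4921 higher and 5307 lower to 3775 and 6653. Pim2 and Pim3 then lost their calls.

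Cish read 196, 209.9, 191 and 203 CPM in DMSO libraries 1 to 4 and 304, 305, 306 and 318 CPM in the libraries 1 to 4 treated with PF-9363. The groups lay far apart, a log2 fold change of 0.62 (edgeR, SE 0.058, adjusted p 8.94e-11), or 1.54-fold. It was 0.39 (adjusted p 4.34e-07) under scaling by library size alone. Socs2 read 10.3, 9.48, 10.9 and 11.9 CPM with DMSO and 30.8, 32.6, 32.5 and 43.1 CPM with PF-9363. All treated libraries were above all controls, with PF-9363 4 the highest, and Socs2 rose 3.27-fold (log2 fold change 1.71 by edgeR, SE 0.12, adjusted p 4.30e-13).

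Cish overlaps 2 annotated genes on the opposite strand, Gm17041 and Gm17040, and Pim1 overlaps the antisense gene Gm26885. In the first experiment Gm17041 had 2 to 9 counts per library and Gm26885 13 to 30. In the second, at lower depth, they had 594 to 1191 and 738 to 1090 counts, or 28.2% to 40.3% of the Cish count and 17.7% to 21.5% of the Pim1 count. The labels do not state how strand was handled, so reads of these genes and of Cish or Pim1 cannot be told apart in the second experiment. With the overlapping genes added in, an alternative chosen after seeing the data, the log2 fold changes with PF-9363 were 0.65 for Cish and 0.096 for Pim1, and with SETBP1-D868N -0.13 and -0.016. No other member overlaps a gene on the opposite strand, apart from a processed pseudogene within the Socs6 locus (chromosome 18, 88665224 to 88927481, minus strand).

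Socs1 read 17.7, 20.95, 19.3 and 19.96 CPM with DMSO and 51.5, 56.2, 64.8 and 64.4 CPM with PF-9363. Every treated library was at least double every control, and the gene rose 3.03-fold (log2 fold change 1.602 by edgeR, SE 0.097, adjusted p 8.07e-15). Socs3 rose less, from 23.2, 21.5, 24.4 and 27.0 CPM to 40.9, 41.6, 40.8 and 42.6 CPM. The treated libraries were close together and all above the controls, with a log2 fold change of 0.79 (edgeR, SE 0.094, adjusted p 1.54e-08), or 1.73-fold.

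The largest rise among the 10 genes was that of Socs5, known for binding the EGF receptor. It read 11.1, 12.8, 13.5 and 12.3 CPM with DMSO and 43.3, 46.4, 49.5 and 53.4 CPM with PF-9363. The groups were far apart, a 3.87-fold rise (log2 fold change 1.95 by edgeR, SE 0.10, adjusted p 4.92e-16). Socs6 rose from 38.0, 36.9, 35.9 and 39.8 CPM to 74.4, 80.4, 90.3 and 85.9 CPM, without overlap and 2.19-fold (log2 fold change 1.13 by edgeR, SE 0.079, adjusted p 1.87e-13). Socs7, whose protein is known to bind adaptor proteins of signalling, was not called. It read 35.2, 34.1, 40.0 and 40.7 CPM with DMSO and 42.3, 42.0, 39.4 and 40.5 CPM with PF-9363, with overlapping groups and a log2 fold change of 0.13 (edgeR, SE 0.088, adjusted p 0.182).

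The PIM genes had log2 fold changes of at most 0.52. Pim1 read 471, 503, 466 and 548 CPM with DMSO and 522, 471, 575 and 541 CPM with PF-9363. The groups overlapped, and the log2 fold change of 0.085 (edgeR, SE 0.066, adjusted p 0.246) became -0.15 (adjusted p 0.0344) under scaling by library size alone. Pim2 read 10.3, 14.1, 9.83 and 12.3 CPM with DMSO and 14.6, 15.6, 18.8 and 17.8 CPM with PF-9363. The highest control lay just below the lowest treated library, and the log2 fold change of 0.52 (edgeR, SE 0.14, adjusted p 0.00144) became 0.28 (adjusted p 0.0622) with library size alone. Pim3 read 70.9, 69.3, 74.3 and 76.5 CPM against 81.9, 84.8, 87.6 and 89.8 CPM. It was higher in all treated libraries by a log2 fold change of 0.24 (edgeR, SE 0.068, adjusted p 0.00235), but by 0.010 (adjusted p 0.895) with library size alone.

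**Figure D2:**
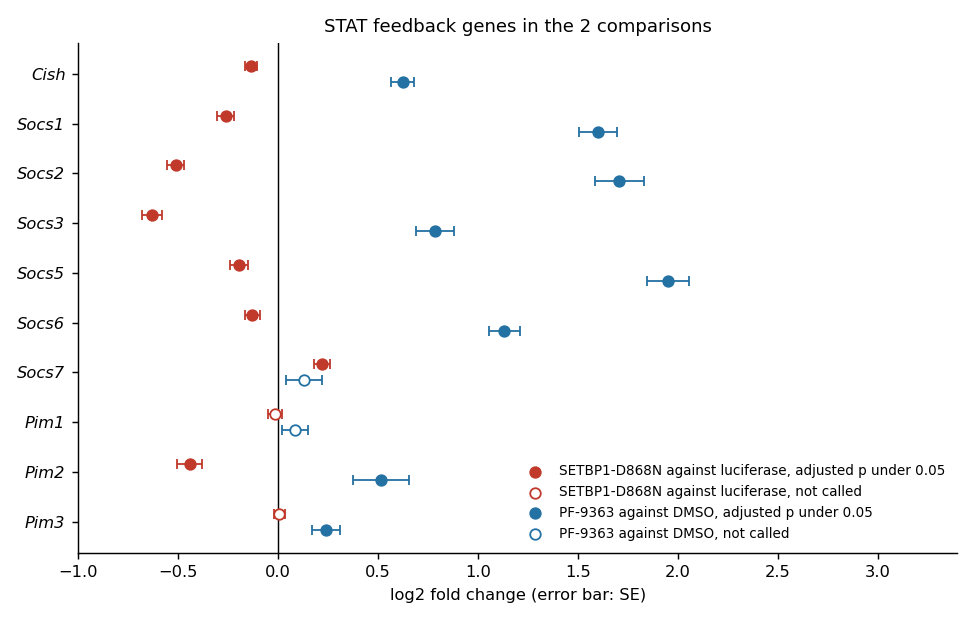
Log2 fold change of the 10 genes with SETBP1-D868N (red) and with PF-9363 (blue), with SE as error bars. Filled points passed an edgeR adjusted p under 0.05. Cish, Socs1, Socs2, Socs3, Socs5, Socs6 and Pim2 lie left of 0 in the first comparison and right of 0 in the second, and Pim1 lies near 0 in both.

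The comparisons share no library, so their values can be set side by side. No cells without SETBP1-D868N were given PF-9363, so an effect on the mutant's changes cannot be told apart from a general effect of the inhibitor. The 7 genes that fell with SETBP1-D868N were all among the 8 that rose with PF-9363. Of the 12376 genes tested in both comparisons, 2084 (16.8%) were called lower in the first and higher in the second, which is 67.3% of the 3098 called lower with SETBP1-D868N and 45.6% of the 4566 called higher with PF-9363. The members' 7 of 7 is read against that 67.3%, and no test of the difference was made. Socs3 had the largest fall (-0.63) beside a rise of 0.79, and Socs5 had -0.19 beside the largest rise, 1.95. For Cish the values were -0.13 and 0.62, and for Socs2 -0.51 and 1.71. Differences in fold change between members were not tested.

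Markers of other cell types moved in both comparisons, and their part in these results was not tested. With SETBP1-D868N, 6 of 6 monocyte and macrophage markers were called lower, and their summed level was 974 to 1026 CPM with luciferase and 603 to 636 CPM with the mutant. Of 6 mast cell and basophil markers, 4 were lower and 2 higher (3835 to 4042 CPM, then 3296 to 3489 CPM), and of 8 promyelocyte and neutrophil markers, 4 were lower and 4 higher (24863 to 25878 CPM, then 17082 to 19592 CPM). Stem and progenitor markers summed to 761 to 783 CPM and 777 to 812 CPM, with 3 of 6 higher and 3 lower. Of 6 megakaryocyte markers, 5 were tested, with 4 lower and 1 higher (419.7 to 429 CPM, then 367 to 402 CPM). Of 6 erythroid markers, 5 were tested, with 3 higher (9.48 to 10.95 CPM, then 19.7 to 20.9 CPM).

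With PF-9363, 6 of 6 monocyte and macrophage markers were higher (601 to 767 CPM with DMSO, then 3483 to 4135 CPM), as were 5 of 6 mast cell and basophil markers (909 to 1170.1 CPM, then 3936 to 4906 CPM). Stem and progenitor markers summed to 159 to 179.5 CPM with DMSO and 487 to 576 CPM with PF-9363, with 2 of 6 higher and 2 lower. Of 8 promyelocyte and neutrophil markers, 4 were lower and 1 higher (18987 to 22229 CPM, then 16560 to 18035 CPM). Within that sum, Elane, Mpo and Prtn3, granule protein genes of promyelocytes named after their values were seen, fell far. Elane read 1453 ± 70.5 CPM with DMSO and 1.75 ± 1.49 CPM with PF-9363 (SD, n = 4). Mpo read 2320.3 ± 304 and 6.35 ± 4.04 CPM, and Prtn3 1054 ± 86.9 and 7.31 ± 6.27 CPM. The more abundant S100a8, S100a9 and Ngp were not called. The other marker called lower and the 1 called higher are not named here. The highest log2 fold change among the 8 was 1.11. Megakaryocyte markers summed to 74.2 to 87.3 CPM and 412 to 471 CPM. Of these 6, 4 were tested, with 3 higher and 1 lower. Erythroid markers summed to 4.16 to 6.39 CPM and 6.83 to 13.1 CPM. Of these 6, 2 were tested, with 1 higher. B cell markers summed to 5.89 to 10.2 CPM with DMSO and 0.309 to 1.52 CPM with PF-9363. Only 1 of these 6 was tested, and it was called lower. No macrophage, mast cell, stem cell or neutrophil marker was at 0 throughout a group. The B cell markers Ms4a1 and Ebf1 and the T cell markers Cd3e, Cd3g and Cd8a were at 0 in this experiment.

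Levels of different genes can be compared per length of transcript. In CPM per kilobase of the longest coding transcript, Pim1 was the most abundant of the 10 genes in all 4 groups and Cish the next. With luciferase, Pim1 stood at 136 ± 6.52 CPM per kilobase (SD, n = 3), Cish at 107 ± 3.53, Pim3 at 54.8 ± 0.599 and Pim2 at 37.1 ± 2.00. Socs1 followed at 30.3 ± 0.703, Socs2 at 17.1 ± 0.601, Socs3 at 13.9 ± 0.962, Socs6 at 8.96 ± 0.185, Socs5 at 5.77 ± 0.236 and Socs7 at 4.92 ± 0.0699. No neighbours in that order overlapped in their libraries. With SETBP1-D868N, Pim2 (27.3 ± 2.22) and Socs1 (25.3 ± 1.55) overlapped, and Socs7 (5.73 ± 0.269) lay above Socs5 (5.04 ± 0.163).

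With DMSO, Pim1 stood at 184 ± 14.1 CPM per kilobase (SD, n = 4), Cish at 70.2 ± 2.87 and Pim3 at 30.0 ± 1.33. Below them, Pim2 (10.5 ± 1.75) and Socs3 (9.41 ± 0.918) overlapped, as did Socs1 (6.69 ± 0.477) and Socs6 (6.24 ± 0.280), and Socs7 (5.35 ± 0.475) and Socs2 (4.79 ± 0.454). Socs5 was lowest, at 2.67 ± 0.215. With PF-9363, Pim1 stood at 195 ± 15.98, Cish at 108 ± 2.34, Pim3 at 35.4 ± 1.42 and Socs1 at 20.4 ± 2.23. The neighbours Socs3 (16.3 ± 0.333), Socs2 (15.6 ± 2.52), Pim2 (15.0 ± 1.74) and Socs6 (13.7 ± 1.14) each overlapped the next. Socs5 (10.4 ± 0.929) and Socs7 (5.85 ± 0.197) came last, so Socs5 went from below Socs7 to above it.

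Summed per length, the 7 SOCS family genes had 183 to 191 CPM per kilobase in luciferase libraries and 161 to 165 in SETBP1-D868N libraries. They had 102 to 109 with DMSO and 182 to 201 with PF-9363. The 3 PIM genes summed to 218 to 235 and 209.7 to 219.8 in the first experiment, with groups that overlapped, and to 212 to 246 and 224 to 266 in the second, again overlapping. The SOCS sums did not overlap within either experiment. Cish was their largest part, on average 107 of 188 CPM per kilobase with luciferase and 97.9 of 163 with SETBP1-D868N. It was 70.2 of 105 with DMSO and 108 of 190 with PF-9363. In the second experiment, reads of Cish cannot be told apart from those of the genes it overlaps. The SOCS and PIM sums are given as a description, without a test. The choice of length matters: with all annotated exons merged, Pim1 stayed first in all 4 groups, Pim3 ranked above Cish in both groups of the first experiment, and Socs2 ranked last in all 4.

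**Figure D3:**
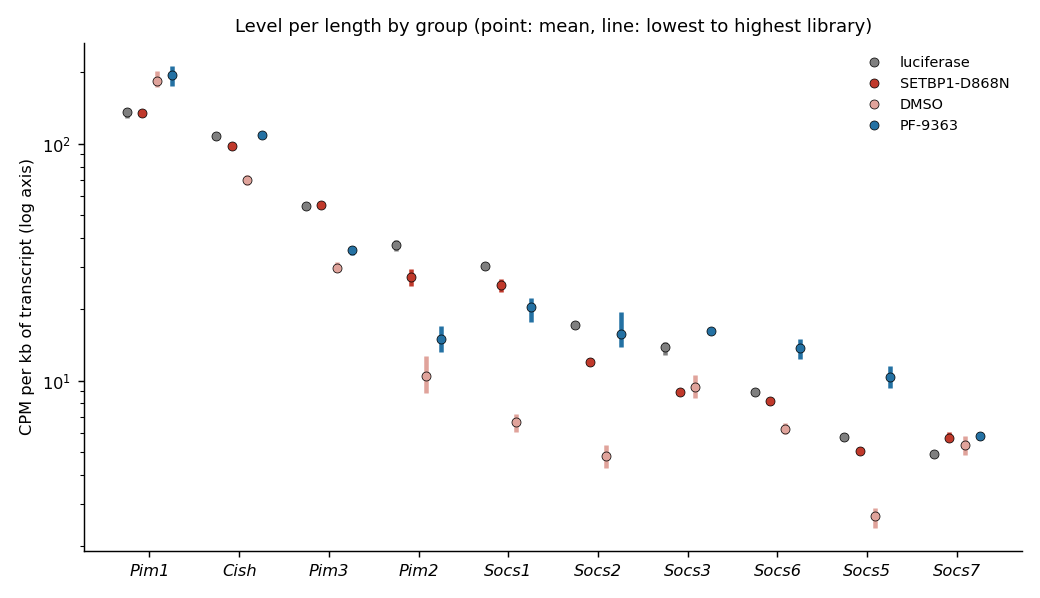
Level per length of the 10 genes in the 4 groups, in CPM per kilobase of the longest coding transcript on a log axis. Points are means and lines run from the lowest to the highest library. Pim1 and Cish are highest in each group, and the gap between DMSO and PF-9363 is wide for Socs1, Socs2 and Socs5, while the lines of Socs7 overlap. Levels of the 2 experiments were normalized separately.

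The rest of the pathway was read from 6 lists of 56 genes in all: receptors, JAK and STAT genes, SOCS box partners, other brakes, other STAT targets and PIM substrates. With SETBP1-D868N, 35 of the 56 were called lower and 7 higher, with a median log2 fold change of -0.17. The share called lower, 62.5%, stands beside 22.7% of all genes. With PF-9363, 36 were called higher and 11 lower, with a median of 0.56, and the share called higher, 64.3%, stands beside 36.6%. The lists were chosen with earlier results of these data known, so these shares are a description. Kit is both in the receptor list and among the stem and progenitor markers.

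Upstream of the feedback genes are the receptors for the cytokines in the medium. With SETBP1-D868N, 5 of the 6 receptor genes fell. Kit, the SCF receptor, had a log2 fold change of -0.66, Il6ra and Il6st, the 2 subunits of the IL6 receptor, -0.48 and -0.54, and Csf2rb and Csf2rb2, the signalling chains of the IL3 receptor, -0.34 and -0.58. Il3ra, the IL3-binding chain, rose by 0.23. With PF-9363 all 6 rose: Csf2rb2 by 2.91, Il6ra by 1.99, Il6st by 1.83, Csf2rb by 1.76, Kit by 1.45 and Il3ra by 0.36 on the log2 scale, the last with overlapping groups and no call at 0.13 with library size alone. Csf2rb and Csf2rb2 are near-identical neighbours, so the split of reads between them is uncertain. The edgeR adjusted p-values of these receptor genes were at most 0.00182 in the first comparison and 0.00463 in the second.

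Of the JAK and STAT genes, all 11 fell with SETBP1-D868N, with a median log2 fold change of -0.26. Jak2, the kinase on the IL3 receptor, had -0.55 (edgeR, SE 0.032, adjusted p 1.24e-07) and Stat4 -0.43. Stat5a and Stat5b, the factors best known for inducing Cish and the PIM genes, had -0.11 and -0.14, and Stat5b -0.086 with library size alone. The Stat5a call (edgeR adjusted p 0.0233) was lost with library size alone (-0.063) and without luciferase 1 (-0.085), luciferase 2 (-0.11), SETBP1-D868N 1 (-0.092) or SETBP1-D868N 2 (-0.11). With PF-9363, 7 rose and 2 fell. Jak2 rose 2.86-fold and Jak3, the partner of the common gamma chain, was 3.33-fold lower (log2 fold change -1.73, adjusted p by edgeR 1.44e-14). Stat5a and Stat5b rose by 0.45 and 0.39, and by 0.22 and 0.16 with library size alone.

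Next are the partners that build the ligase recruited by the SOCS box. With SETBP1-D868N, 1 of its 6 genes rose, Cul5, which encodes the scaffold (log2 fold change 0.35), and 5 were not called. With PF-9363, 3 rose and 1 fell, led by Ube2f, an enzyme that attaches the activator NEDD8 to CUL5 (0.88), and Socs4, a further SOCS gene counted with this list (0.85). Of 11 other brakes, 6 fell and 1 rose with SETBP1-D868N, and 7 rose and 1 fell with PF-9363. The phosphatase gene Ptprc (CD45) had log2 fold changes of -0.41 and 1.02, the ubiquitin ligase gene Cblb -0.37 with SETBP1-D868N, and Pias3, an inhibitor of STAT3, 1.22 with PF-9363.

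Other STAT target genes are listed to set the feedback genes beside further genes known to be regulated by STATs, not always by the same one. With SETBP1-D868N, 9 of 12 fell, led by the repressor Bcl6 (log2 fold change -0.79) and the IL2 receptor gene Il2ra (-0.68). The 1 that rose was Myc (0.48). With PF-9363, 9 rose and 3 fell. Il2ra rose by 2.45 from 1.66 ± 0.414 CPM, while Myc, a driver of growth, had a log2 fold change of -2.55 (edgeR adjusted p 4.90e-22). PIM substrates showed no common direction, with 4 of 10 lower and 3 higher with SETBP1-D868N, where Foxo3 had -0.26 and Cdkn1a -0.24. With PF-9363, 4 were higher and 4 lower, and the division phosphatases Cdc25c and Cdc25a had -2.64 and -2.61.

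**Figure D4:**
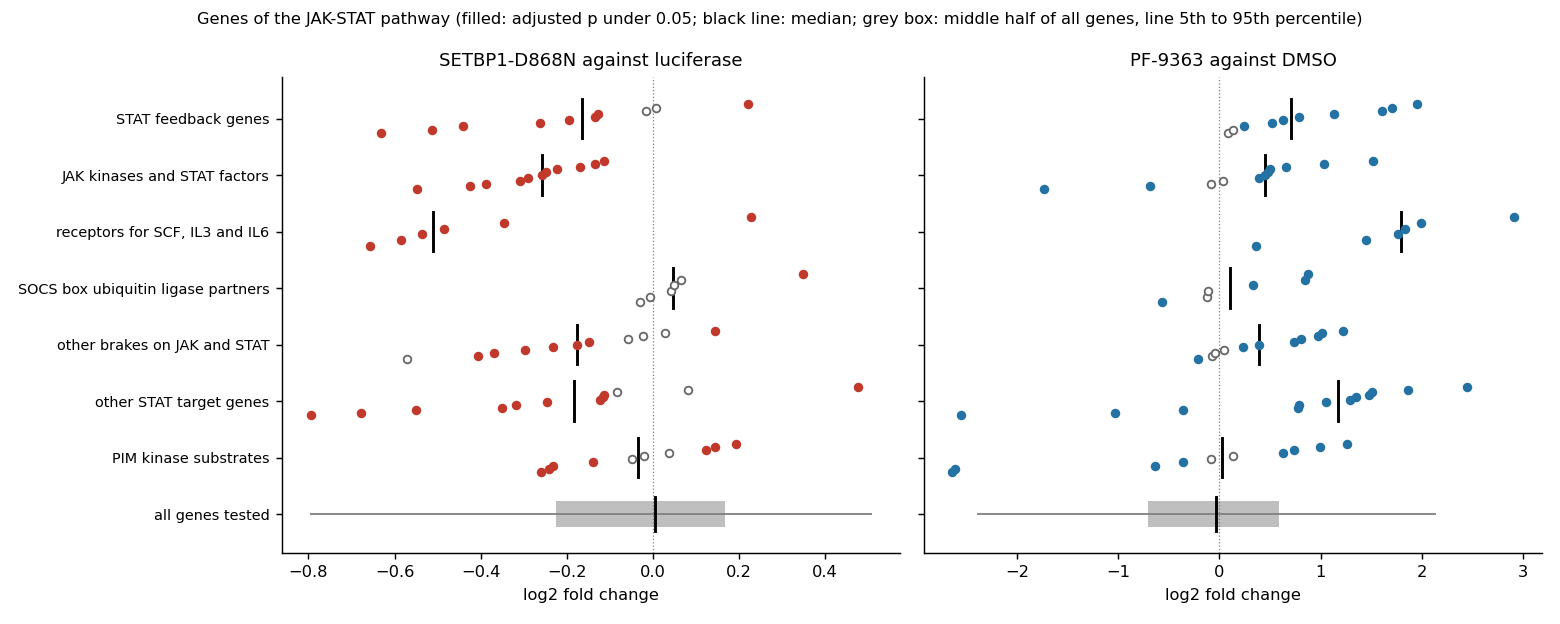
Log2 fold changes of the 10 feedback genes and of the genes of 6 pathway lists, with SETBP1-D868N on the left and PF-9363 on the right (axes differ). Filled points passed an edgeR adjusted p under 0.05, black lines are medians, and the grey box and line give the quartiles and the 5th to 95th percentile of all genes tested. The medians of the feedback genes are -0.16 and 0.71, beside -0.51 and 1.79 for the receptors.

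The genes whose pattern was most like a member were found by Pearson's r over the 14 libraries of log2(CPM + 1), with each experiment centred on its own mean, among 9339 genes. The difference between DMSO and PF-9363 dominates this measure, so it is a description. For Cish, Vwa5a (r 0.995) and Reep3 (0.994) were among them. For Socs2 they were Actr3 (0.996), Plekho1 (0.993) and B2m (0.992), and for Socs3 Ncf1 (0.991), Tpsb2 (0.99) and Cd226 (0.982). Pim1 had no gene as close, with Alkbh7 (0.851), Smox (0.844) and Szrd1 (0.83) at the top. It was not called in either comparison (log2 fold changes -0.016 and 0.085). That leaves this measure little group difference to follow, so its lower r is not read as a trait of Pim1.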

How the data were processed

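Per the labels, the values deposited by the authors are raw counts, with genes named by symbol and 1 table for each experiment. The submitters' processing notes list STAR, DESeq2, GRCm38 and mm10. The counting program and strand handling are not given in the sources used here. RNA input was 500 ng in the first experiment and 100 ng, with libraries by Novogene, in the second. No column was left unmapped.

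The rest was done here in R 4.3.3. Low genes were removed with edgeR 4.0.16's filterByExpr (minimum count 10, minimum total 15). Counts were scaled by TMM and compared within each experiment by edgeR's quasi-likelihood test with robust estimation. Adjustment was by Benjamini-Hochberg over all genes tested, with calls made at adjusted p under 0.05. SE is the absolute log2 fold change over the square root of F. Lengths and overlaps of the members came from GENCODE M21 (GRCm38), matched by symbol. 53365 of 55367 symbols matched.

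The members, lists and tests were chosen with earlier results of these data known. Named pathway genes were the 2 called with the largest change per list and comparison, Stat5a, Stat5b and the receptors. The 3 genes most like Cish, Socs2, Socs3 and Pim1 had at least 5 CPM. Some genes that these rules or lists hold are not reported here. Alternatives were RLE size factors or library size, other filters, DESeq2 1.42.0, limma-voom 3.58.1, no robust estimation, a replicate block, summed overlapping genes and leaving out each library. Depth was 60147266 to 68730322 counts per library and 7083731 to 10359093.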

Additional observations from a re-analysis of the deposited data

Results flagged for a closer look

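Among 20 groups of 4 libraries of the second experiment (10 genes, DMSO and PF-9363), the highest library stood apart from the other 3 in 2 groups, where chance gives about 1 in 20 groups. Both were PF-9363 4. It had 318 CPM of Cish, where the other treated libraries had 304 to 306, and 43.1 CPM of Socs2, where they had 30.8 to 32.6. Without this library, the log2 fold change was 0.62 for Cish (edgeR adjusted p 8.08e-10) and 1.59 for Socs2 (edgeR adjusted p 1.91e-12), so both stayed higher with PF-9363.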

How the results depend on the processing

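Counts of the 10 genes called did not move when any single library was left out: 7 lower and 1 higher with SETBP1-D868N in 6 fits, 8 higher and 0 lower with PF-9363 in 8 fits. Pathway counts then ranged over 30 to 35 lower and 6 to 8 higher, and 36 higher and 11 to 12 lower. Scaling by library size alone moved 3 counts by over 1.5 times: 11 pathway genes higher with SETBP1-D868N, and with PF-9363 1 of the 10 genes (Pim1) and 18 pathway genes lower. It also left 6 of the 10 lower with SETBP1-D868N (Socs6 lost) and 6 higher with PF-9363 (Pim2 and Pim3 lost). Among the 10 genes, signs turned for Pim1, Pim3 and Socs7 where TMM gave no call. With SETBP1-D868N, Pim1 became 0.033 with library size alone and 0.014 without luciferase 2, and Pim3 -0.000466 with RLE factors, -0.000429 with DESeq2, -0.000394 without luciferase 1 and -0.017 without SETBP1-D868N 3. Leaving out each library in turn gave -0.053 to 0.014 for Pim1 and -0.017 to 0.016 for Pim3. With PF-9363 and library size alone, Socs7 became -0.099 and Pim1 -0.15. The cause was not tested. With the replicate block, 7 of the 10 genes were lower and 1 higher with SETBP1-D868N and 8 higher with PF-9363, as without it, and the Stat5a call was lost (adjusted p 0.0651). The numbers share no stated source. Same-numbered libraries had correlated deviations of -0.23 to -0.041 (first experiment) and -0.037 to 0.018 (second), and 0 of 6 and 0 of 8 libraries correlated best with their own number. A count of 0 allowed up to 0.0436 to 0.0499 CPM (first) and 0.290 to 0.424 CPM (second), counting error only, well below the lowest member.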
